A study of Mus musculus with 2 samples.

Results

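The metabotropic glutamate receptors are glutamate receptors that act through G proteins. Of the 8 mouse genes of the family that the count tables list, 6 were taken by symbol, among 32285 genes in all. These are *Grm5* of group I, *Grm2* and *Grm3* of group II, and *Grm4*, *Grm7* and *Grm8* of group III. The level of each was taken in every neuron subtype and glial class that could be named from markers, in the PS19 and in the PZKO library. The genes were not filtered by their values, but the list was set with earlier results of these data known.

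Group I receptors couple to Gq and phospholipase C and release calcium from internal stores, mostly at the edge of the postsynaptic density. Group II and group III receptors couple to Gi/o proteins and inhibit adenylyl cyclase. They sit largely on axons and terminals, where they lower transmitter release, and mGluR3 is also found on astrocytes. In the hippocampus mGluR5 is the main group I receptor of pyramidal cells, mGluR2 is known from the mossy fibre system of dentate granule cells, and mGluR7 lies in the active zone.

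Nuclei came from pooled hippocampi of male mice aged 9 months. The PS19 group (PS19+/- *Zbp1*+/+) carries a transgene for mutant human tau, driven by the mouse *Prnp* promoter. The PZKO group (PS19+/- *Zbp1*-/-) carries the same transgene and lacks *Zbp1*, which encodes a sensor of Z-form nucleic acids. Both groups thus carry the tau transgene. There is 1 library per genotype, so the difference between libraries has no replicate check and no test was made, and every interval below covers counting error only.

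The libraries differed in depth. After filters the PS19 library held 9590 nuclei with a median of 5850 unique molecular identifiers (UMIs), and the PZKO library 9307 nuclei with a median of 9015. The libraries shared 47 barcodes, and without those nuclei the counts of receptor ratios past the fold given below were the same. Levels are given in CPM, the UMIs of a gene scaled to the total UMIs of its class. *Zbp1* had 14.4 CPM in PS19 microglia-like nuclei and 5.94 CPM in PZKO. It did not reach 0 in PZKO, and the position of the deletion relative to the counted ends is not given in the sources used here. *Ttr*, a choroid plexus transcript that marks free RNA in other cells, stood at 165 CPM in PS19 excitatory neurons and 17.8 CPM in PZKO excitatory neurons. The libraries also differed in choroid plexus-like nuclei, 261 in PS19 and 96 in PZKO, so *Ttr* alone does not give the difference in free RNA. In the same neurons the 9 oligodendrocyte markers summed to 301 CPM in PS19 and 249 CPM in PZKO, and the 9 microglia markers to 49.7 and 37.4 CPM.

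Of 29 clusters, 9 neuron subtypes and 4 glial classes were compared. The excitatory subtypes were dentate granule-like, CA1-like, CA3-like, subiculum-like, upper-layer cortex-like, deep-layer corticothalamic-like and near-projecting-like. The last 3 have marker genes of neocortical layers, although the labelled tissue is hippocampus. Interneurons were split into an *Lhx6* and an *Adarb2* set. The glial classes were astrocyte-like, oligodendrocyte precursor-like, oligodendrocyte-like and microglia-like. In both libraries *Prox1* was highest in the dentate granule-like cluster, *Fibcd1* in the CA1-like one, *Foxp2* in the deep-layer one and *Vwc2l* in the near-projecting-like one. Other markers of these lists were not all highest in their cluster. Among the 13, the CA1-like cluster ranked 2 for *Wfs1* and 3 for *Mpped1* in both libraries. The upper-layer cortex-like cluster ranked 1 for *Otof*, 2 for *Cux2*, *Cux1* and *Rorb*, 3 for *Stard8* and 4 for *Rasgrf2*. Excitatory and inhibitory clusters that matched no list are called by their leading genes.

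The 6 genes lie on 5 chromosomes of mm10 and differ widely in length. *Grm2* (ENSMUSG00000023192, chr9:106643095-106656082, minus strand) spans 12.99 kb. *Grm3* (ENSMUSG00000003974, chr5:9485541-9725170, minus strand) spans 240 kb and *Grm4* (ENSMUSG00000063239, chr17:27422387-27521403, minus strand) spans 99.02 kb. *Grm5* (ENSMUSG00000049583, chr7:87584168-88134907, plus strand), *Grm7* (ENSMUSG00000056755, chr6:110645581-111567230, plus strand) and *Grm8* (ENSMUSG00000024211, chr6:27275119-28135178, minus strand) span 551, 922 and 860 kb. A gene on the opposite strand that was also counted overlaps *Grm2* (*Gm28111*, with 15 UMIs in PS19 and 23 in PZKO) and *Grm7* (*Gm20387*, with 387 and 584). Whether the counts used strand or introns is not given in the sources used here.

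*Grm2* and *Grm3* belong to the same group but were highest in different cells, so the 250 bases before their RefSeq starts are shown (GRCm38.p6, 5′ to 3′ on the gene's strand). Capitals mark GGGCGG or its reverse complement, the GC box. *Grm2* (chr9:106656110-106656359) has 3 matches and 71.2% G and C, while *Grm3* (chr5:9725353-9725602) has 1 match and 62.4%.
Grm2: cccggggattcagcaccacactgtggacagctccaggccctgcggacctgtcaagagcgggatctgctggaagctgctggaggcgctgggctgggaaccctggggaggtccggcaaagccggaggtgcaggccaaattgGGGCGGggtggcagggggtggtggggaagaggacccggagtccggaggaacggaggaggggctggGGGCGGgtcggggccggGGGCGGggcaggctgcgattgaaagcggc
Grm3: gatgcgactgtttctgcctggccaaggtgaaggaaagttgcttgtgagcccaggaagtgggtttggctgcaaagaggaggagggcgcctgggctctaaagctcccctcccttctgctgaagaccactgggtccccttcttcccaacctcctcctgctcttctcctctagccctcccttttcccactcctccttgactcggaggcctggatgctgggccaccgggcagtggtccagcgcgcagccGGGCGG
The box occurs in 32.7% of the 32851 RefSeq windows of this length. *Grm7* has 1 match, the same site in both of its overlapping windows, and *Grm8* has 1 match in 1 of its windows and none in the others. A match is a description of the letters, and no factor was measured. *Grm4* and *Grm5* have no window in the table used.

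The receptors differed in where they were found, in much the same way in both libraries. Among the 13 subtypes and classes, *Grm5* and *Grm7* were found in all 9 neuron subtypes, *Grm3* was highest in oligodendrocytes and astrocytes, *Grm2* in dentate granule-like neurons, *Grm8* in subicular and deep cortical types, and *Grm4* in near-projecting-like neurons. A small Cajal-Retzius-like cluster, outside the 9 subtypes, had a *Grm5* UMI in 6 of 28 PS19 and 5 of 30 PZKO nuclei and a *Grm7* UMI in 3 and 6. Across the 13 subtypes and classes, the level of a gene in PS19 and in PZKO had a Pearson r between 0.955 (*Grm4*) and 0.997 (*Grm7*) on the log2(CPM + 1) scale, given as a description, since both libraries were clustered together.

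**Figure D1:**
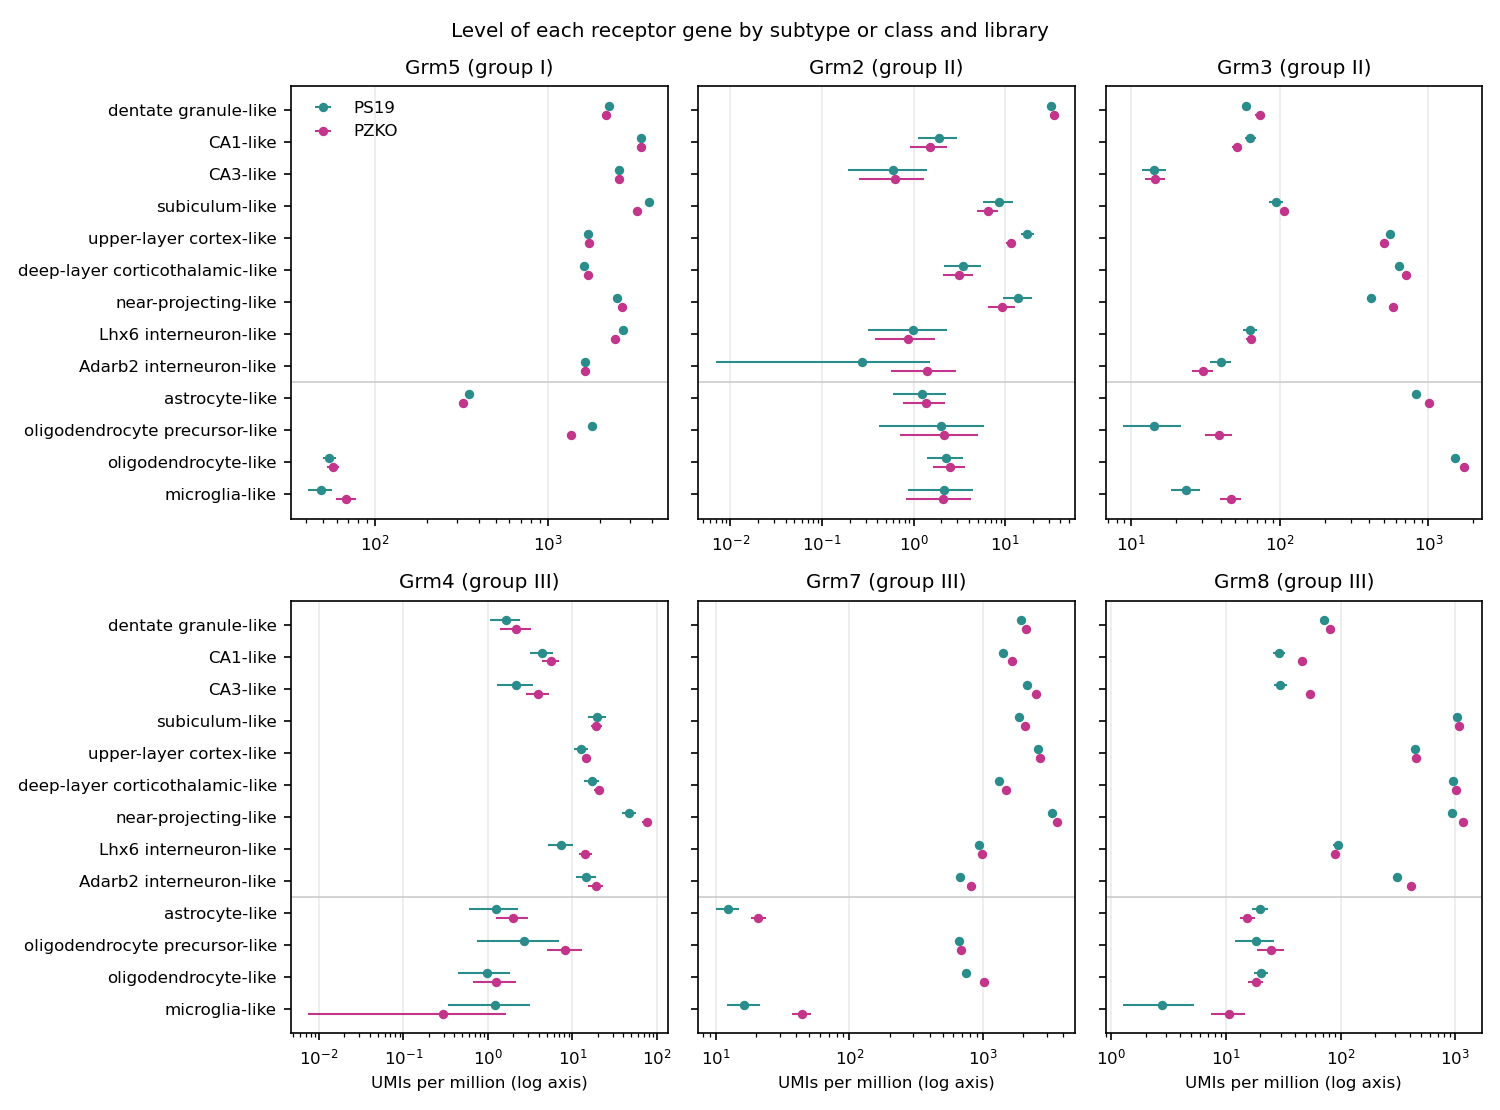
Level of each receptor gene (CPM, log axis) in 9 neuron subtypes and, under the grey line, 4 glial classes, for PS19 (teal) and PZKO (magenta), with exact Poisson 95% intervals for counting error. *Grm5* and *Grm7* are found in all 9 neuron subtypes, *Grm3* is highest in oligodendrocyte-like nuclei and *Grm2* in dentate granule-like nuclei. *Grm7* in *Adarb2* interneurons (674 CPM in PS19 and 810 CPM in PZKO) is below oligodendrocyte-like nuclei (748 and 1010 CPM).

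*Grm5* encodes mGluR5, the group I receptor. It reached 3885 CPM in PS19 and 3300.5 CPM in PZKO subiculum-like neurons, and 3471 and 3463 CPM in CA1-like neurons. The lowest neuron subtype was the deep-layer one in PS19 (1623 CPM) and the *Adarb2* interneurons in PZKO (1638 CPM). All 9 neuron subtypes thus lay within 2.39 times of each other in PS19 and within 2.11 times in PZKO. The order at the top, subiculum-like before CA1-like, turned between the libraries. Among glia, oligodendrocyte precursors had the highest level, with 1819 CPM in PS19, within the range of the neuron subtypes, and 1358 CPM in PZKO, below all 9. Astrocyte-like nuclei had 349 and 325 CPM, and oligodendrocyte-like nuclei 54.5 and 57.0 CPM.

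Nearly every CA1-like and subiculum-like nucleus carried a *Grm5* UMI. In *Adarb2* interneurons, without thinning, 188 of 207 PS19 and 175 of 176 PZKO nuclei had one. With each nucleus thinned to 2000 UMIs, the share was 98.7% of PS19 and 99.7% of PZKO CA1-like nuclei (100% and 95.1% in subiculum-like nuclei), against 9.99% and 11.8% of oligodendrocyte-like nuclei. Free RNA, estimated from barcodes under 600 UMIs and scaled by *Ttr*, came to 47.0 of the 54.5 CPM in PS19 oligodendrocyte-like nuclei and 12.02 of the 57.0 CPM in PZKO. The estimate rests on 35 *Grm5* UMIs in PS19 and 40 in PZKO. It can be too high in PS19. For *Grm4* in PS19 oligodendrocyte-like nuclei it came to 5.38 CPM, from 4 UMIs, against a level of 0.97 CPM. Median depths were 23690 and 32324 UMIs in CA1-like and 3335 and 4260 UMIs in oligodendrocyte-like nuclei. Oligodendrocyte precursors were at 92.9% in PS19 (95% exact binomial interval 88.5 to 95.9) and 84.2% in PZKO (78.5 to 88.9). Without thinning those shares were 98.1% and 93.9%.

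*Grm7* encodes mGluR7, a low-affinity group III receptor of active zones. Among the 9 named neuron subtypes it was highest in near-projecting-like neurons, with 3310.5 CPM in PS19 and 3569 CPM in PZKO, then in upper-layer cortex-like (2585 and 2691 CPM) and CA3-like neurons (2129 and 2513 CPM). The unmatched *Fermt1*/*Sec14l3* cluster was higher still, with 4249.6 and 4211 CPM. Interneurons held less. *Lhx6* interneurons had 931 and 974 CPM and *Adarb2* interneurons 674 and 810 CPM. Among glia the gene divided the oligodendrocyte lineage from the rest. Oligodendrocyte-like nuclei had 748 CPM in PS19 and 1010 CPM in PZKO, and precursors 659 and 688 CPM, while astrocyte-like nuclei had 12.2 and 20.8 CPM and microglia-like nuclei 16.3 and 43.9 CPM. After thinning, 49.1% of PS19 and 53.4% of PZKO oligodendrocyte-like nuclei had a *Grm7* UMI, against 2.55% and 5.88% of microglia-like nuclei. *Grm5* was low in oligodendrocytes, so the genes parted there although both were found in the 9 neuron subtypes.

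*Grm3* encodes mGluR3, a group II receptor of neurons and glia. Its highest level among the 13 subtypes and classes was in oligodendrocyte-like nuclei, at 1518 CPM in PS19 and 1733 CPM in PZKO. Astrocyte-like nuclei followed with 826 and 1006 CPM. Among neurons, deep-layer corticothalamic-like (635 and 702 CPM), upper-layer cortex-like (553 and 506 CPM) and near-projecting-like neurons (413 and 575 CPM) were high. The hippocampal types were far lower, at 59.5 and 73.0 CPM in dentate granule-like, 63.3 and 51.3 CPM in CA1-like and 14.3 and 14.5 CPM in CA3-like neurons. The last value lay under that of PS19 microglia-like nuclei, 23.3 CPM. After thinning, a *Grm3* UMI was found in 87.0% of PS19 and 89.6% of PZKO oligodendrocyte-like nuclei, in 68.1% and 72.8% of astrocyte-like nuclei and in 3.65% and 5.16% of microglia-like nuclei.

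*Grm2* encodes mGluR2, the other group II receptor. It was highest in dentate granule-like neurons, with 32.0 CPM in PS19 (490 UMIs) and 34.1 CPM in PZKO (380 UMIs). The next were upper-layer cortex-like neurons with 17.5 and 11.6 CPM, near-projecting-like neurons with 13.8 and 9.30 CPM and subiculum-like neurons with 8.56 and 6.54 CPM. Among the 13 subtypes and classes the dentate interval lay above all others in both libraries, while those of upper-layer and near-projecting-like neurons overlapped, as did those of near-projecting- and subiculum-like neurons. CA1-like (1.91 and 1.497 CPM) and CA3-like neurons (0.60 and 0.63 CPM) were under the level of oligodendrocyte-like nuclei, 2.26 and 2.49 CPM. Free RNA, by the estimate used for *Grm5*, came to 0.24 and 0.21 CPM in CA1-like and 0.18 and 0.13 CPM in CA3-like neurons. In oligodendrocyte-like nuclei it came to 1.34 and 0.90 CPM. The estimate rests on 1 *Grm2* UMI in PS19 and 3 in PZKO, and whether these low levels are background was not tested. Among unmatched excitatory clusters, the *Fermt1*/*Sec14l3* cluster had 29.6 and 27.5 CPM, with intervals that overlap the dentate ones, and the *Itprid1*/*Tshz2* cluster 22.9 and 18.0 CPM. After thinning, 7.04% of PS19 and 7.81% of PZKO dentate granule-like nuclei had a *Grm2* UMI, against 0.55% and 0.48% of oligodendrocyte-like nuclei. Without thinning the dentate shares were 33.7% and 43.3%, at median depths of 14681 and 20597 UMIs.

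*Grm8* encodes mGluR8, a presynaptic group III receptor. It was highest in subiculum-like (1024 CPM in PS19, 1084 CPM in PZKO), deep-layer corticothalamic-like (958 and 1011 CPM) and near-projecting-like neurons (928 and 1176 CPM). Which of the 3 led differed between the libraries. The CA fields were low, with 28.9 and 46.4 CPM in CA1-like and 29.9 and 54.0 CPM in CA3-like neurons, and the dentate granule-like value was 70.9 and 80.2 CPM. The named interneuron sets split, with 312 and 410 CPM in the *Adarb2* set and 94.6 and 90.0 CPM in the *Lhx6* set. The unmatched *Ano1*/*Col6a3* inhibitory cluster held more, a mean of 14.5 and 23.6 *Grm8* UMIs per nucleus, against 5.55 and 11.6 in the *Adarb2* set. These means are not scaled to depth, and median depths were 19018 and 32325.5 UMIs in that cluster and 17238 and 25839.5 UMIs in the *Adarb2* set. The 8 inhibitory markers summed to 1096 and 1276 CPM in the *Ano1*/*Col6a3* cluster, against 804 and 751 CPM for the 8 excitatory ones. After thinning, 75.2% of PS19 and 83.0% of PZKO subiculum-like nuclei had a *Grm8* UMI, against 2.81% and 2.68% of oligodendrocyte-like nuclei.

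*Grm4* encodes mGluR4, also a presynaptic group III receptor. Its highest value among the 9 subtypes was in near-projecting-like neurons, 47.4 CPM in PS19 (110 UMIs) and 75.4 CPM in PZKO (300 UMIs). Subiculum-like (19.7 and 19.3 CPM) and deep-layer corticothalamic-like neurons (17.1 and 20.6 CPM) came next and do not separate beyond counting error. Dentate granule-like (1.63 and 2.15 CPM) neurons had intervals that overlap those of oligodendrocyte-like nuclei, 0.97 and 1.24 CPM. The gene's main site was a small excitatory cluster led by *Adamts19*, *Abhd12b*, *Vipr2*, *Synpo2* and *Shox2*, with 57 PS19 and 71 PZKO nuclei. The cluster was called excitatory from 5 detected markers, but its 8 inhibitory markers summed to 3612 CPM in PS19 and 4656 CPM in PZKO, against 1146 and 1064 CPM for the 8 excitatory ones. Of the transmitter genes, *Slc17a6*, a vesicular glutamate transporter, had 189 and 177 CPM there, and *Gad1* and *Gad2*, which make GABA, had 1.36 and 2.06 CPM and 1.81 and 1.37 CPM. There *Grm4* reached 144 CPM in PS19 and 154 CPM in PZKO. After thinning, 26.3% and 39.4% of these nuclei had a UMI, with intervals of 15.5 to 39.7 and 28.0 to 51.8. The cluster holds 2.02% of PS19 excitatory nuclei but 33.5% of their *Grm4* UMIs, and 2.31% and 25.8% in PZKO.

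Outside neurons and the 4 glial classes, high values stood in cells of vessels and ventricles. Pericyte-like nuclei had 3808 CPM of *Grm7* in PS19 and 3058 CPM in PZKO, and 1570 and 1728 CPM of *Grm3*. The *Grm7* value in PS19 was above that of every compared neuron subtype, with a UMI in 88.8% of PS19 and 80.0% of PZKO nuclei after thinning. Choroid plexus-like nuclei had 841 and 937 CPM of *Grm8* beside 18.2 and 13.5 CPM of *Grm7*, and 63.2% and 61.5% of them had a *Grm8* UMI after thinning.

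Set against gene length, *Grm5* and *Grm7* had the highest levels in excitatory neurons. Per 100 kb of gene span, PS19 and PZKO had 432 and 412 CPM for *Grm5*, 223 and 259 for *Grm7*, 112 and 86.1 for *Grm2*, 90.0 and 118 for *Grm3*, 37.4 and 51.9 for *Grm8*, and 15.8 and 27.1 for *Grm4*. Per kb of exon the order was another one. *Grm7* then led with 349 and 406 CPM, before *Grm5* with 232 and 222, and *Grm2* had 2.98 and 2.28 CPM, behind *Grm3* (70.7 and 92.5 CPM) and *Grm8* (32.5 and 45.1 CPM) in both libraries and behind *Grm4* (2.61 and 4.49 CPM) in PZKO. The place of *Grm2*, the shortest gene, thus depends on the length that is used. *Grm6*, the receptor of retinal ON bipolar cells, had 0 UMIs in both libraries, which allows up to 0.0298 CPM in PS19 and 0.0197 CPM in PZKO over all nuclei.

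To ask how the libraries differ within a subtype, the log2 ratio of PZKO over PS19 was taken for each gene where both libraries together had at least 100 UMIs, and a ratio of 0.5 or more from 0 was counted as past the fold. Of 78 pairs of gene and subtype or class, 59 had the UMIs. Past the fold were 8 pairs higher in PZKO, where 2.65% of all gene and class pairs were, and 1 pair lower, where 6.22% of all pairs were. The median of the 59 ratios was 0.11, beside -0.03 over all 127689 gene and class pairs, and 44 of the 59 were above 0 (74.6%, against 44.3% of all pairs).

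**Figure D2:**
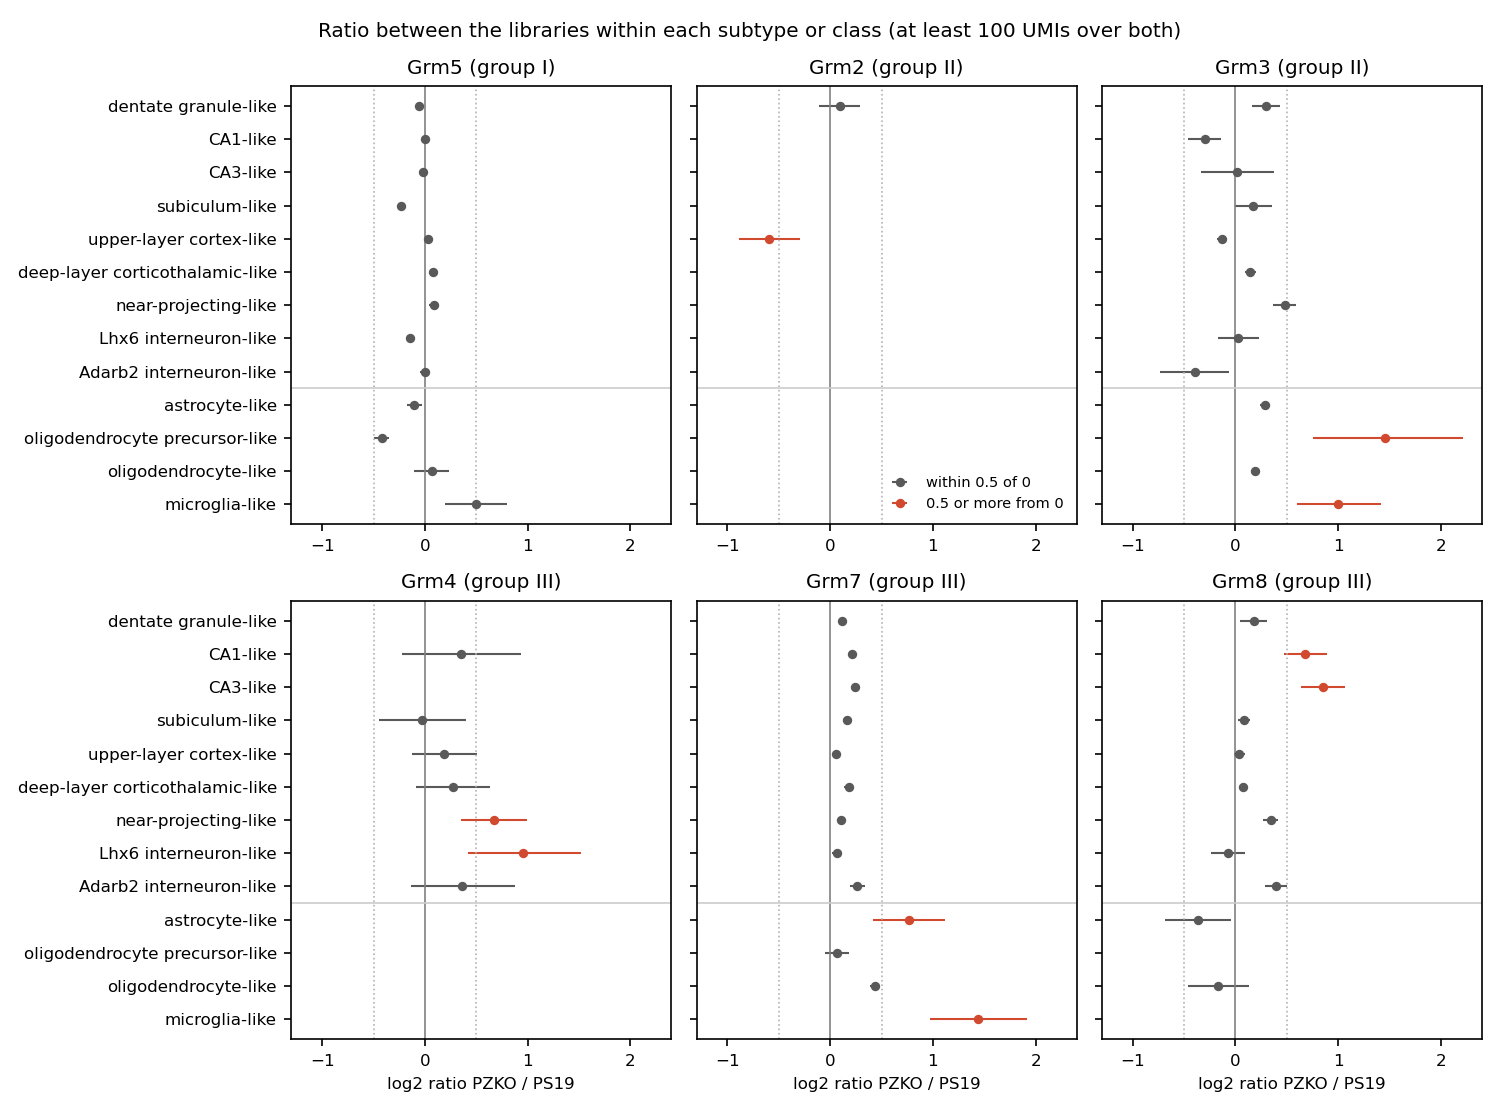
Log2 ratio of PZKO over PS19 for each receptor gene within each subtype or class, with exact conditional binomial 95% intervals for counting error, where both libraries together held at least 100 UMIs. Red points lie 0.5 or more from 0 (dotted lines), 8 above and 1 below. *Grm7* is above 0 in all 13 rows.

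In neurons, 4 of 45 pairs were past the fold upward (2.55% of all pairs in the 9 subtypes) and 1 downward (5.61%). *Grm8* was higher in PZKO in CA1-like neurons, 28.9 CPM in PS19 and 46.4 CPM in PZKO (log2 ratio 0.68, 95% interval 0.47 to 0.89), and in CA3-like neurons, 29.9 and 54.0 CPM (0.85, 0.64 to 1.07). Both are subtypes where the gene is low, and few nuclei held it. The 5 nuclei with the most carried 57.0% of the *Grm8* UMIs of the PS19 CA3-like cluster and 54.2% in PZKO, and with doublets left in, the CA3-like ratio was -0.01. In the subtypes where *Grm8* is high, its ratio was 0.08 in subiculum-like (0.03 to 0.14), 0.08 in deep-layer (0.03 to 0.12) and 0.34 in near-projecting-like neurons (0.27 to 0.42).

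*Grm4* was past the fold in near-projecting-like neurons, 47.4 and 75.4 CPM (0.67, 0.35 to 0.998), and in *Lhx6* interneurons, 7.34 and 14.2 CPM (0.95, 0.42 to 1.52). The second value rests on 37 UMIs in PS19 and 131 in PZKO. Its ratio in subiculum-like neurons was -0.03 (-0.44 to 0.40), in upper-layer cortex-like neurons 0.19 (-0.13 to 0.51) and in deep-layer neurons 0.27 (-0.08 to 0.63). These intervals include 0 and, in deep-layer and upper-layer neurons, also the threshold of 0.5, so this depth does not tell the sizes apart. In the *Adamts19*/*Abhd12b* cluster, where the gene is highest, the ratio was 0.10 (-0.10 to 0.29).

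*Grm2* was the gene that was lower in PZKO past the fold, in upper-layer cortex-like neurons, with 17.5 CPM in PS19 and 11.6 CPM in PZKO (-0.59, -0.89 to -0.29). In dentate granule-like neurons, its main site, the ratio was 0.09 (-0.11 to 0.29). The other 11 classes had too few UMIs for the ratio.

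*Grm7* was higher in PZKO in all 13 subtypes and classes, and 12 intervals lay above 0. The share of all genes with an interval above 0 was not computed, so the 12 has no background beside it. Outside the 13 the direction was not uniform. The *Grm7* levels given above for pericyte-like nuclei and for the *Fermt1*/*Sec14l3* cluster were lower in PZKO. With each library clustered on its own, the *Grm7* ratio in *Lhx6* interneurons was -1.37, and that of *Grm8* there was -3.07. That set then held 217 PS19 and 156 PZKO nuclei, against 216 and 277 when clustered together, so the cells compared were not the same. The class whose *Grm7* interval held 0 was oligodendrocyte precursors. There the ratio turned with doublets left in (-0.085), with the mean over nuclei (-0.032) and after subtraction of free RNA (-0.00032). In the neuron subtypes the ratios were small, from 0.06 in upper-layer cortex-like (0.04 to 0.08) to 0.26 in *Adarb2* interneurons (0.19 to 0.34). In CA3-like neurons the ratio was 0.24 (0.21 to 0.27) and in CA1-like neurons 0.21 (0.18 to 0.25). *Grm5* had ratios from -0.24 in subiculum-like neurons (-0.265 to -0.206) to 0.09 in near-projecting-like neurons (0.04 to 0.13), with none past the fold in neurons. *Grm3* ranged from -0.40 in *Adarb2* interneurons (-0.74 to -0.06, but 0.28 with doublets left in) to 0.48 in near-projecting-like neurons (0.37 to 0.59), and was lower in CA1-like neurons (-0.30, -0.46 to -0.14). The direction of *Grm3* was thus not shared among neuron subtypes.

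In glia, 4 of 14 pairs were past the fold upward (2.88% of all pairs in the 4 classes) and 0 downward (7.72%). All 4 are genes at low levels in the class. *Grm3* was higher in oligodendrocyte precursors, 14.1 CPM in PS19 and 38.7 CPM in PZKO (1.45, 0.76 to 2.22), from 21 and 89 UMIs. With doublets left in, this ratio was 0.71, and with the mean over nuclei 0.97. It was higher in microglia-like nuclei, 23.3 and 46.6 CPM (1.0, 0.60 to 1.41). *Grm7* was higher in microglia-like nuclei, 16.3 and 43.9 CPM (1.43, 0.97 to 1.92), and in astrocyte-like nuclei, 12.2 and 20.8 CPM (0.76, 0.42 to 1.12).

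Both genes are high in oligodendrocyte-like nuclei, so the 9 oligodendrocyte markers were read beside them. In the precursor-like nuclei those markers summed to 683 CPM in PS19 and 1530 CPM in PZKO, moving with *Grm3*. In microglia-like nuclei they summed to 1115 and 951 CPM, and in astrocyte-like nuclei to 686 and 504 CPM, against the direction of both receptors. The 8 excitatory markers were at 351 and 324 CPM in microglia-like nuclei and 225 and 205 CPM in astrocyte-like nuclei. None of these markers was at 0 in either library in these classes, and their part in the ratios was not tested. In PZKO, 5 microglia-like nuclei held 34.4% of the *Grm3* UMIs and 43.9% of the *Grm7* UMIs of their class.

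By the same estimate free RNA in PS19 came to 28.3 CPM of *Grm7* in microglia-like nuclei and 14.7 CPM in astrocyte-like nuclei, both above the level of the gene there, and in PZKO to 8.84 and 4.58 CPM. Neither *Grm7* ratio can therefore be given after subtraction. For *Grm3* in microglia-like nuclei the estimate was 3.86 and 3.54 CPM, and the ratio after subtraction was 0.995. That ratio, like the one for *Grm7* in oligodendrocyte precursors, is not what plain subtraction of the CPM values gives. How class totals were treated in the subtraction is not stated here. The *Grm7* ratio in astrocyte-like nuclei was 0.12 with no filter on nuclei. The estimate rests on 22 *Grm7* UMIs in PS19 and 25 in PZKO.

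Where the receptors are high in glia, the ratios were smaller. *Grm3* was at 0.29 in astrocyte-like (0.24 to 0.33) and 0.19 in oligodendrocyte-like nuclei (0.16 to 0.22). *Grm7* was at 0.43 in oligodendrocyte-like nuclei (0.39 to 0.48). *Grm5* in oligodendrocyte precursors was lower in PZKO, 1819 CPM against 1358 CPM (-0.42, -0.50 to -0.35), short of the fold, from 2703 and 3121 UMIs.

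To ask what a comparison of all excitatory neurons as 1 class shows, their UMIs were summed. *Grm4* had 15.6 CPM in PS19 (948 UMIs) and 26.8 CPM in PZKO (2615 UMIs), a log2 ratio of 0.78 (0.67 to 0.89). It was the 1 member of 6 past the fold upward, where 3.37% of 16056 genes were, and 0 members were past it downward, where 7.54% were. Without the *Adamts19*/*Abhd12b* cluster, an alternative chosen after seeing the data, *Grm4* had 10.8 and 20.8 CPM (0.95, 0.82 to 1.08), and it was still the 1 member past the fold. *Grm8* followed with 321 and 446 CPM (0.47, 0.45 to 0.50) and *Grm3* with 216 and 282 CPM (0.39, 0.36 to 0.42). *Grm7* was at 0.22 (0.21 to 0.23), *Grm5* at -0.07 (-0.08 to -0.06), which turned to 0.03 with DESeq2 size factors, and *Grm2* at -0.38 (-0.51 to -0.25).

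The mix of excitatory nuclei differed between the libraries. Dentate granule-like nuclei were 35.8% of PS19 and 16.7% of PZKO excitatory nuclei, upper-layer cortex-like nuclei 12.1% and 20.9%, and the *Fermt1*/*Sec14l3* cluster 0.67% and 2.41%. With both libraries set to the PS19 mix of the 10 excitatory clusters, the ratio of *Grm4* was 0.41, that of *Grm8* 0.13, that of *Grm3* 0.09 and that of *Grm2* -0.07. With every cluster at equal weight the ratios were 0.49, 0.21, 0.17 and -0.20. No member was past the fold under either weighting. Where levels were kept at those of PS19 and only the mix was changed to that of PZKO, *Grm3* moved by 0.45, *Grm8* by 0.44, *Grm4* by 0.43 and *Grm2* by -0.22. The cause of the difference in mix, and its part in the ratios beyond these recomputed values, was not tested.

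**Figure D3:**
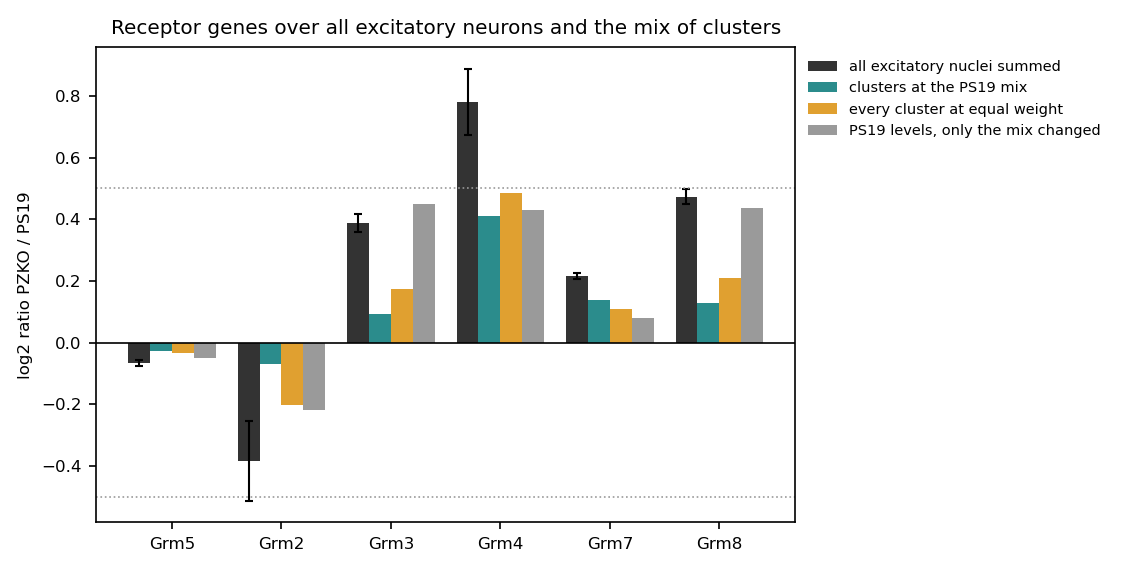
Log2 ratio of PZKO over PS19 over all excitatory neurons for each gene, with nuclei summed (black, 95% interval for counting error), with both libraries at the PS19 mix of 10 clusters (teal), at equal cluster weights (orange), and with PS19 levels and only the mix changed (grey). *Grm4* is past 0.5 (dotted line) only when nuclei are summed, at 0.78, and falls to 0.41 and 0.49 under the other weights.

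Under a fixed mix *Grm4* still had the highest ratio of the members. Of its 8 excitatory clusters with 100 UMIs, 7 were higher in PZKO. A like count over all genes is not given here, so the 7 has no background beside it. The *Fermt1*/*Sec14l3* cluster had 39.5 CPM in PS19 and 105 CPM in PZKO (1.41, 0.76 to 2.14), which rests on 20 UMIs from 19 nuclei in PS19 and 331 UMIs from 74 nuclei in PZKO. The *Itprid1*/*Tshz2* cluster had 30.1 CPM in PS19 and 46.1 CPM in PZKO (0.61, 0.34 to 0.90). Of all genes, 10.3% were past the fold upward in the *Fermt1*/*Sec14l3* cluster and 2.80% in the *Itprid1*/*Tshz2* cluster. The *Fermt1*/*Sec14l3* cluster gave 2.11% of PS19 and 12.7% of PZKO excitatory *Grm4* UMIs.

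**Figure D4:**
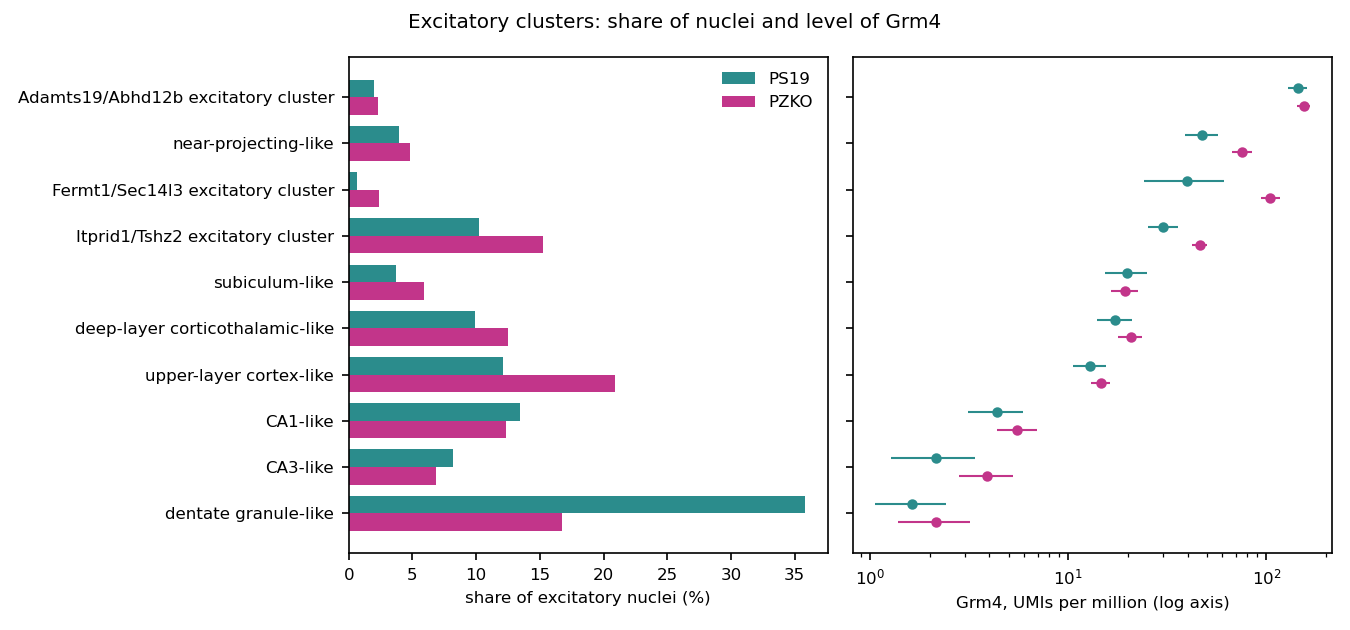
Share of excitatory nuclei in each of 10 clusters (left, %) and the level of *Grm4* in each (right, CPM, log axis, exact Poisson 95% intervals), for PS19 (teal) and PZKO (magenta), ordered by the PS19 level. The dentate granule-like cluster, lowest in *Grm4* with 1.63 and 2.15 CPM, is the largest share of PS19 nuclei at 35.8% and falls to 16.7% in PZKO.

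Partner genes of the receptors were read by the same rule in excitatory neurons. Of 28 on the list, 27 had 100 UMIs. Past the fold were 2 upward, where 3.37% of all genes were, and 1 downward, where 7.54% were. The median ratio of the 27 was 0.08, beside -0.07 over all genes. *Homer1*, a scaffold that ties group I receptors to the postsynaptic density and whose short form is induced by activity, had 189 CPM in PS19 and 309 CPM in PZKO (0.71, 0.68 to 0.74). It was higher in all 7 excitatory subtypes and past the fold in 3 of them, up to 0.85 in upper-layer cortex-like neurons (0.79 to 0.91). Of all genes, between 1.19% (dentate granule-like) and 4.0% (CA3-like) were past the fold upward in these subtypes. *Adcy8*, a calcium-stimulated adenylyl cyclase, had 147 and 222 CPM (0.59, 0.56 to 0.63). *Ncdn*, which encodes norbin, a protein that binds mGluR5, had 47.9 and 33.6 CPM (-0.51, -0.59 to -0.44).

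Under equal cluster weights these ratios were 0.48 for *Homer1*, 0.14 for *Adcy8* and -0.20 for *Ncdn*, and 0 partner genes were past the fold. The other G protein and effector genes, of which some are named here for their role, were not past the fold. The ratio was 0.05 for *Gnaq* (Gq), 0.23 for *Gnao1* (Go), 0.19 for *Plcb1* (phospholipase C) and 0.19 for *Itpr1* (the IP3 receptor).

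Genes whose pattern over 21 subtypes, classes and unmatched clusters was most like that of each receptor were named from 14746 genes with at least 500 UMIs, by the lower of the Pearson r values of the PS19 and PZKO libraries. For *Grm5* these were *Lmtk3* (r 0.97 in PS19 and 0.96 in PZKO), *Tro* (0.96 and 0.97) and *Gria2*, an AMPA receptor subunit (0.97 and 0.96). For *Grm7* they were *Cacna1c*, an L-type calcium channel (0.92 and 0.90), *Hecw2* (0.89 and 0.89) and *Galnt17* (0.90 and 0.89). *Grm8* was nearest to *Atp2b2* (0.89 and 0.85), *Btbd10* (0.83 and 0.85) and *Has1* (0.86 and 0.83), and *Grm4* to *Gm9866* (0.87 and 0.86), *Gm13629* (0.87 and 0.85) and *Cntn4* (0.84 and 0.87).

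The group II genes had no close match. The nearest to *Grm2* were *B230208B08Rik* (0.72 and 0.69), *Tnnt2* (0.69 and 0.69) and *Zdhhc8* (0.68 and 0.72), and the nearest to *Grm3* were *Stmn1* (0.66 and 0.76), *Ptk2* (0.73 and 0.64) and *Tmod2* (0.64 and 0.64). *Grm2* and *Grm3* had an r of 0.41 in PS19 and 0.21 in PZKO with each other, while *Grm5* and *Grm7* had 0.77 and 0.74. All points share their library, and clusters differ in depth, so these values are descriptions.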

How the data were processed

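Single-nucleus 3′ RNA libraries, 1 of PS19 and 1 of PZKO, were deposited by the authors as gene by barcode tables of UMI counts, not normalised. Cell Ranger is given as 7.0.1 in the labels and as 8.0.1 in the matrix headers, with mm10. The ambient correction, filters and doublet calls of the study are not part of the deposited counts, and the labels do not tie nuclei to animals.

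Barcodes with at least 600 UMIs and 300 genes and at most 5% mitochondrial UMIs were kept, and simulated-doublet scores removed 0.8% per 1000 nuclei. Both libraries were clustered together with scanpy 1.11.5 (2000 variable genes, 30 components, Leiden resolution 1). Clusters were named from marker lists, and the thresholds for naming were set after the clusters were seen. UMIs were summed per class and library. Levels have exact Poisson and ratios exact conditional binomial 95% intervals, tested on simulated data, which cover counting error only. A pair is past the fold at 0.5 on the log2 scale with 100 UMIs over both libraries. Where a count is 0, 3 counts set the limit. Shares were taken after thinning to 2000 UMIs, which left out 399 PS19 and 164 PZKO oligodendrocyte-like nuclei. All 6 members are named. For likeness, the 3 nearest genes are named. The members and lists were chosen with earlier results of these data known. Alternatives were edgeR 4.0.16 and DESeq2 1.42.0 scaling factors (R 4.3.3), with no test, and other filters, clusterings and weights. The values of 1 partner gene are not reported here.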

Additional observations from a re-analysis of the deposited data

Results flagged for a closer look

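For 3 receptors the log2 ratio of PZKO over PS19 was past the fold upward in some cells and downward in others. The share of all genes past the fold in both directions is not given here, so the 3 has no background beside it. With 1 library per genotype these differences between cell classes were not tested, and each class's interval covers counting error only.

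*Grm3* was higher in PZKO in oligodendrocyte precursor-like (1.45), endothelial-like (1.30) and microglia-like nuclei (1.0) and in the *Fermt1*/*Sec14l3* cluster (0.53), and lower in VLMC-like nuclei, the fibroblast-like cells of the meninges and vessels (-0.97), and in the *Adamts19*/*Abhd12b* cluster (-0.55). In the last, 5 nuclei held 54.7% of the *Grm3* UMIs in PS19 and 71.3% in PZKO. In PS19, 5 nuclei held 60% in the VLMC-like class and 53.3% in the *Fermt1*/*Sec14l3* cluster, which had 19 PS19 nuclei.

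*Grm5* was lower in pericyte-like (-1.46) and higher in VLMC-like nuclei (2.34). In PS19 pericyte-like nuclei 5 nuclei held 86.1% of its UMIs, and in PZKO VLMC-like nuclei 1 nucleus held 211 of 282 UMIs.

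*Grm8* was higher in CA1-like neurons (0.68), CA3-like neurons (0.85) and the *Fermt1*/*Sec14l3* cluster (1.62), and lower in the *Adamts19*/*Abhd12b* cluster (-1.27), where 5 nuclei held 85.9% of its UMIs in PS19 and 87.0% in PZKO. In the *Fermt1*/*Sec14l3* cluster 5 of 19 PS19 nuclei held 65.2% of its UMIs. Of all genes, 12.8% were past the fold upward and 10.1% downward in pericyte-like nuclei, and 9.81% and 8.97% in VLMC-like nuclei. The share was 10.3% upward in the *Fermt1*/*Sec14l3* cluster and 5.95% downward in the *Adamts19*/*Abhd12b* cluster. Upward shares were 5.09% in oligodendrocyte precursor-like, 4.29% in endothelial-like and 3.37% in microglia-like nuclei. They were 1.57% in CA1-like and 4.0% in CA3-like neurons.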

How the results depend on the processing

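No paired analysis was possible because each genotype has 1 library, and for the same reason no replicate could be left out. Of the 749 ratios recomputed for 65 results, 605 stayed within the counting interval of the value reported, 143 moved outside it and 1 of those past the fold turned its direction: *Grm8* in CA3-like neurons was at -0.014 with doublets left in. Ratios short of the fold that changed sign are not in that count of 1. For example, *Grm8* in upper-layer cortex-like neurons went from 0.04 to -0.86 with each library clustered on its own. In oligodendrocyte-like nuclei it went from -0.17 to 0.70 after subtraction of free RNA. The 9 pairs past the fold became 14 with the mean over nuclei, 14 with a minimum of 20 UMIs and 16 with no minimum, and 7 to 12 under the others. Over all excitatory neurons, 1 member past the fold became 2 with TMM factors, 2 with DESeq2 size factors, 2 with a stricter filter, 3 with the mean over nuclei, and 0 with equal cluster weights or the PS19 mix. The 3 partner genes became 0 with equal weights. The shares of all genes past the fold under these alternatives are not given here, so these counts have no background beside them. The ratio of *Grm4* over all excitatory neurons ranged from 0.41 to 1.31. The 1.31 came with each library clustered on its own. There the PS19 cluster led by *Abhd12b* and *Adamts19* (95 nuclei) was called Cajal-Retzius-like and left the excitatory class. The PZKO cluster led by *Adamts19* (69 nuclei) stayed in it, so the cells compared were not the same. The cause of the changes under these alternatives was not tested. Some subtypes could not be named at a resolution of 0.5 (4) or with each library clustered on its own (3). The scaling factors shifted all ratios of a class by up to 0.10. Leaving out shared barcodes or the *Adamts19*/*Abhd12b* cluster was chosen after seeing the data. Depth limited the ratios to 59 of 78 pairs.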
